A study of Mus musculus with 6 samples.

Results

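The genes described here encode enzymes that modify drugs, toxins, alcohols and aldehydes, in whole embryonic mouse kidneys (metanephros) with and without Wnt4, a secreted signalling protein. They are the genes on the array whose current symbol starts with Cyp and a digit, Gst, Ugt, Sult, Ephx, Adh or Aldh, without Aldh1a1, Aldh1a2, Cyp11a1, Cyp17a1 and Cyp51. The rule found 78 genes through 101 probe sets, of 8251 genes named on the array, and used only symbols. Where a gene had several probe sets, the brightest on average stood for it, and 41 genes passed a filter on low signals and were tested.

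Total RNA was amplified in 1 round and hybridised to 6 Affymetrix MG_U74Av2 arrays at E14.5, a mid-gestation stage. The 2 Wnt4 mutant samples carried the Wnt4tm1Amc allele, are labelled strain 129 and each pooled 8 to 10 kidneys from 4 to 5 mutant embryos. The 4 wild-type samples are labelled CD-1 and each pooled 2 kidneys, the number of embryos not being given in the sources used here. Matings of CD-1 animals are described in the protocols of both groups, so strain label, pool size and genotype cannot be told apart, and sex is labelled unknown in both groups. Per the study's design text, mutants lack renal vesicles and the nephron structures that form from them, and the question was which genes are expressed there. In whole-organ RNA, fewer cells of a type and less RNA per cell cannot be told apart.

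Foreign compounds are commonly handled in stages. Cytochrome P450 enzymes (Cyp) oxidise them, epoxide hydrolases (Ephx) open reactive epoxides, and alcohol and aldehyde dehydrogenases (Adh, Aldh) oxidise alcohols and aldehydes. Glutathione S-transferases (Gst), UDP-glucuronosyltransferases (Ugt) and sulfotransferases (Sult) then attach glutathione, glucuronic acid or sulfate, which makes the products easier to export. In the adult kidney much of this capacity lies in the proximal tubule, while many of the same enzymes also act on the body's own steroids, retinoids and fatty acids.

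All arrays had a common trimmed mean of 500.3, with median signals of 171.5 to 190.1. Wnt4 itself had signals of 74.2 and 34.5 on the mutant arrays against 829, 739, 946 and 699 on the wild-type arrays, lower in the mutant as labelled (log2 difference -3.59 ± 0.24, SE, limma adjusted p = 6.11e-05). Wild-type replicates 2 and 4 lay on opposite sides of the second principal component, apart from the other arrays. The 40th percentile of signals, which the filter used, was 106.8 and 110.4 on the mutant arrays and 101.1 to 109.5 on the wild-type arrays.

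In Wnt4 mutant kidneys a conjugating sulfotransferase (Sult1d1), a glucuronosyltransferase (Ugt2b5), a cytochrome P450 (Cyp2d26), an aldehyde dehydrogenase (Aldh1a7) and an omega-class glutathione transferase (Gsto1) were lower. A mu-class glutathione transferase (Gstm5) and the retinoic acid-forming Aldh1a3 were higher. Of the 41 tested genes, 5 were lower (12.2%), against 6.11% of all 7981 probe sets tested, and 2 were higher (4.88%), against 4.65%. The other 34 did not pass (limma, Benjamini-Hochberg adjusted p under 0.05). However, 4 of the 5 lower genes passed the filter only through the wild-type arrays. The filter thus took them where the wild type was high, which favours lower calls, and their count supports nothing. Among the 28 genes above the filter in both groups, 1 was lower (3.57%, against 5.85% of such probe sets) and 2 were higher (7.14%, against 5.17%), shares near the background. The median difference over the 41 genes was 0.03 and over all probe sets 0.02, as mutant minus wild type of log2(signal + 16). Without wild-type replicates 2 and 4, 3 genes were lower and 3 higher.

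Sult1d1, a cytosolic sulfotransferase of phenolic compounds, fell to signals of 39.4 and 3.76 on the mutant arrays, against 224, 214, 223 and 168 on the wild-type arrays. The groups did not overlap, and neither mutant value reached the filter level. Its log2 difference was -2.75 ± 0.43 (SE, adjusted p = 0.00434). Cyp2d26, of the Cyp2d subfamily of drug-oxidising P450 enzymes, had 14.48 and 9.67 on the mutant arrays against 152, 132.5, 147 and 147 on the wild-type arrays. All 4 wild-type values lay close together and far above both mutant values, with a difference of -2.52 ± 0.37 (SE, adjusted p = 0.00318). Because the mutant signals are so low, the sizes depend on the offset added before the logarithm: at an offset of 1 the difference was -3.90 for Sult1d1 and -3.50 for Cyp2d26, and at 64 it was -1.69 and -1.46. Without mutant replicate 2, the difference of Sult1d1 was -2.001. Both genes passed the threshold without any 1 of the 6 arrays.

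Ugt2b5, an endoplasmic reticulum enzyme that attaches glucuronic acid, had signals of 12.5 and 83.1 on the mutant arrays against 203, 268, 165 and 243 on the wild-type arrays. Both mutant arrays lay under the filter level and below all 4 wild-type arrays, with a difference of -2.13 ± 0.47 (SE, adjusted p = 0.0219). The call ended when mutant replicate 1 was left out (-1.23, adjusted p = 0.0975), and also when wild-type replicate 1 (-2.16, 0.0569) or wild-type replicates 2 and 4 together (-1.90, 0.0951) were. It also ended with no variance trend (0.0519). Its probe set has the suffix f, which Affymetrix gave to sets that may detect several members of a gene family. The sets that stood for 9 tested genes have this suffix, those of Aldh9a1, Cyp7b1, Cyp4b1 and Cyp2c38 among them.

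Aldh1a7, a cytosolic aldehyde dehydrogenase closely related in sequence to Aldh1a1, had 28.1 and 37.7 on the mutant arrays against 148, 161, 83.0 and 108 on the wild-type arrays. Mutant values lay below every wild-type value, and wild-type values themselves varied about their mean of 125 ± 36.1 (SD, n = 4). The difference was -1.50 ± 0.40 (SE, adjusted p = 0.0450), just inside the threshold, and the call was lost without any 1 of the 6 arrays (adjusted p from 0.0535 without wild-type replicate 3 to 0.213 without mutant replicate 1) and with no filter (0.0525). The differences in those fits ran from -1.66 to -1.36. The related Aldh1a1, which is not one of the 78 genes, had 240 and 230 on the mutant arrays against 238, 286, 257 and 194 on the wild-type arrays (-0.04, adjusted p = 0.925).

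Gsto1, an omega-class enzyme that uses glutathione to reduce dehydroascorbate and methylated arsenic compounds, had 733 and 723 on the mutant arrays against 1272, 1228, 1235 and 1529 on the wild-type arrays. It was above the filter on every array, and no mutant value came near the wild-type range. The difference was -0.83 ± 0.12 (SE, adjusted p = 0.00227, 95% interval -1.10 to -0.57), and it passed under all 16 alternatives run for it. Of the 5 lower genes it was the 1 measured above the filter in both groups.

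Gstm5, of the mu class of glutathione transferases, rose on its brightest probe set to 5095 and 4617 on the mutant arrays, against 3526, 3608, 3635 and 4011 on the wild-type arrays. The difference was 0.39 ± 0.09 (SE, adjusted p = 0.0256). A second probe set went the same way without passing (0.41, adjusted p = 0.102), and the dimmest tested set had -0.05 (0.965). Another set, below the filter and not tested, had 0.25. Aldh1a3, which makes retinoic acid from retinaldehyde, rose to 647 and 603 on the mutant arrays, against 438, 357, 352 and 459 on the wild-type arrays (0.63 ± 0.15, SE, adjusted p = 0.0319). For both genes the 2 mutant arrays lay above all 4 wild-type arrays. Neither passed without wild-type replicate 1, 2 or 3, or without either mutant array: the adjusted p ran from 0.0514 to 0.238 for Gstm5 and from 0.0503 to 0.212 for Aldh1a3. Both passed without wild-type replicate 4, and neither passed with no variance trend (0.0918 for Gstm5, 0.0583 for Aldh1a3). Gstm5 also did not pass when its probe sets were averaged (0.25, adjusted p = 0.408).

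**Figure D1:**
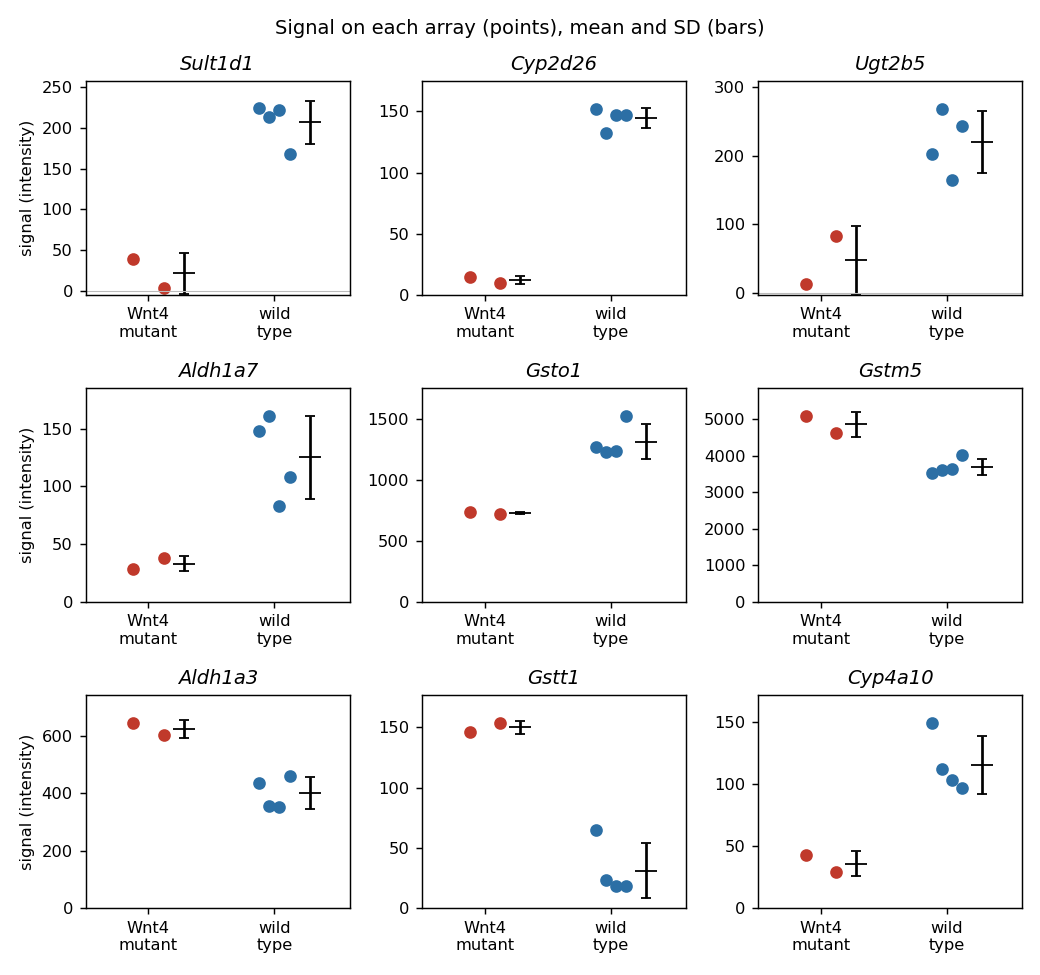
Signal (intensity, linear axis) on each array for the 7 genes past the threshold and for Gstt1 and Cyp4a10, with the 2 Wnt4 mutant arrays in red and the 4 wild-type arrays in blue. Horizontal marks and bars give the mean and SD of each group; in all 9 panels both mutant points are beyond the wild-type points.

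The promoter windows of 4 of these genes are shown because they hold matches to motifs of transcription factors known for this pathway or for tubule and liver. RefSeq (GRCm38.p6) windows run from 250 bases before to 50 after a start used for the gene, which need not be its outermost end. Capitals mark matches on either strand to GTTAAT (one arm of the site of HNF1, a tubule and liver factor), to TGACNNNGC (core of the antioxidant response element, bound by Nfe2l2) and to GCGTG (core of the aryl hydrocarbon receptor site). In Gstm5 the TGACNNNGC match overlaps a GCGTG match.
Sult1d1 (chr5:87568957-87569256, minus strand): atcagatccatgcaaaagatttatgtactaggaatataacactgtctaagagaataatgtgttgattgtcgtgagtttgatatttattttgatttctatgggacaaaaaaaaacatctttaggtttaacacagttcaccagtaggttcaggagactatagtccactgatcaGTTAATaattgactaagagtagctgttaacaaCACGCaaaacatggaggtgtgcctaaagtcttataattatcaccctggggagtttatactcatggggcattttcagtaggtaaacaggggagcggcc
Cyp2d26 (chr15:82794196-82794495, minus strand): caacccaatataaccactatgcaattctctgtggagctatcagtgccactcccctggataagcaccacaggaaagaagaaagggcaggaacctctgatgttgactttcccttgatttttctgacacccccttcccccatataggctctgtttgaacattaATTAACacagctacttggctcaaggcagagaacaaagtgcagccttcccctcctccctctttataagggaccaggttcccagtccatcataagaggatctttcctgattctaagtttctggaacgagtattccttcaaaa
Aldh1a7 (chr19:20727507-20727806, minus strand): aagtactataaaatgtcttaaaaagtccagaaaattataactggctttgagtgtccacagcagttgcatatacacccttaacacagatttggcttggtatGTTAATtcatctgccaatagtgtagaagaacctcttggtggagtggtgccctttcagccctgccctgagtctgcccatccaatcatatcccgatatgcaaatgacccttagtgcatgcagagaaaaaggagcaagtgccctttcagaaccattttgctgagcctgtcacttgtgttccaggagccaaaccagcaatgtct
Gstm5 (chr3:107895604-107895903, plus strand): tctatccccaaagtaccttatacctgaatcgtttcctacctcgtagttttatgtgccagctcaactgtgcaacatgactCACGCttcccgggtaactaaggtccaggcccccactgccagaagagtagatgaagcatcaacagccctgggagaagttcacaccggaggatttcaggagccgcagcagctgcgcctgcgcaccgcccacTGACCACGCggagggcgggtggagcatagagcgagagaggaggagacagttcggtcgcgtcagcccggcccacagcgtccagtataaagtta

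The GTTAAT arm lay 79 bases before the start used in Sult1d1, 90 in Cyp2d26 and 150 in Aldh1a7. In Cyp2d26 that start lies inside the listed gene (chr15:82790107-82794452, minus strand), and so does the match. The arm was present in 3 of the 5 lower genes, in 4 of 30 tested genes with a window and in 8.24% of all 27025 genes with one. All 3 lower genes with the arm were tested only through the wild-type arrays, so their share among the lower genes supports nothing. Ugt2b5 and Gsto1 had no match to any motif searched. The TGACNNNGC core was found in Gstm5, in 3 of the 30 tested genes and in 14% of all genes, and GCGTG in 11 of the 30 and in 35.2% of all. Windows were matched for 62 of the 78 genes, including 32 of those not tested. CAAAGTCCA, a core of the HNF4 site, was in none of the 30 tested genes and in 5 of the 62 (Cyp2c70, Cyp3a11, Cyp3a16, Cyp8b1 and Sult1b1), against 0.555% of all genes, and all 5 lay below the filter. The full HNF1 palindrome, which contains this arm on both strands, was in none of the 62. These matches describe letters in a window and are not evidence of binding.

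**Figure D2:**
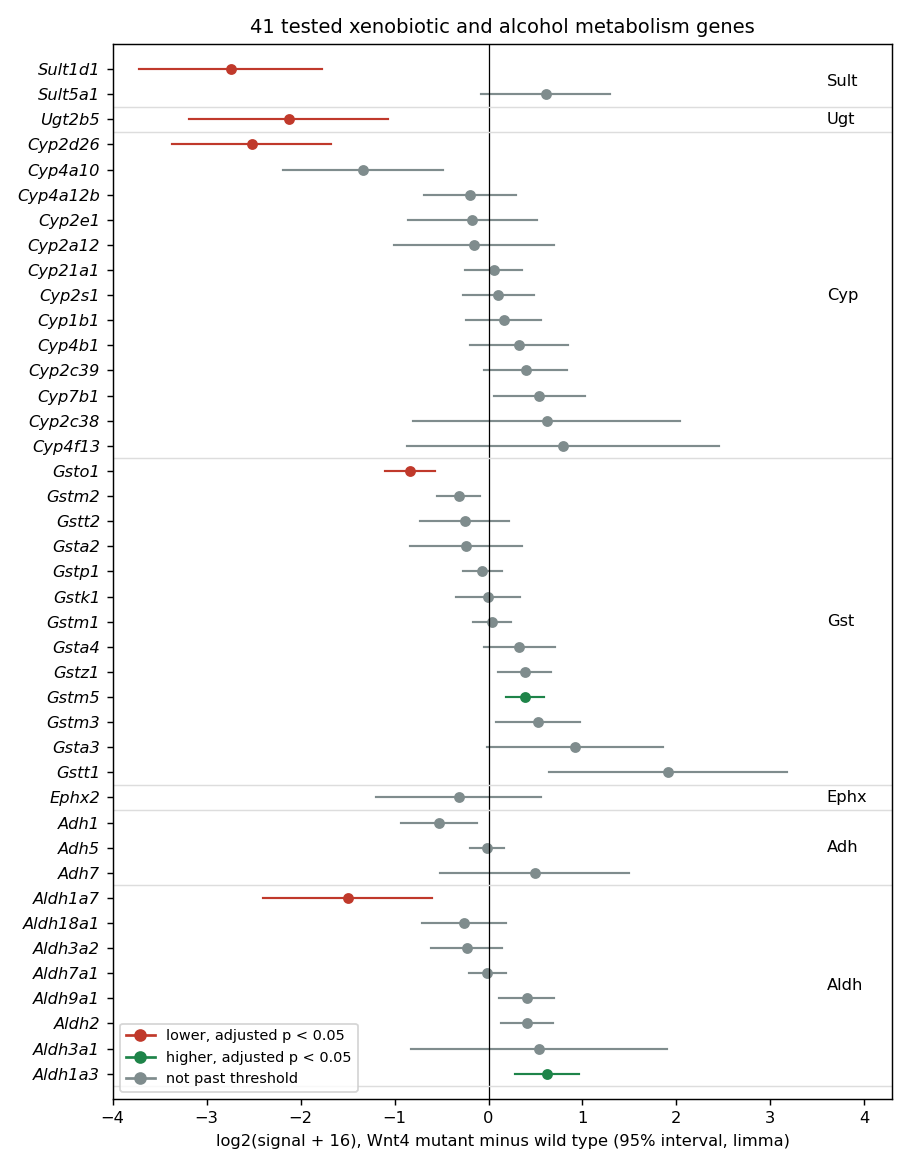
Difference of log2(signal + 16), Wnt4 mutant minus wild type, for each of the 41 tested genes by family, with 95% intervals from limma (2 mutant and 4 wild-type arrays). Red and green mark the 5 lower and 2 higher genes past the adjusted threshold; the intervals of most of the other genes include 0.

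Of the 37 Cyp genes, 13 were tested, and 1 (Cyp2d26) was lower, 0 were higher and 12 did not pass. The median of the 13 was 0.10. Cyp4a10, a fatty acid hydroxylase, came just outside the threshold, with 43.1 and 29.2 on the mutant arrays against 150, 112, 104 and 97.3 on the wild-type arrays. Its groups did not overlap (-1.33, 95% interval -2.19 to -0.48, adjusted p = 0.0553), and it passed with quantile normalization (adjusted p = 0.0433), with no variance trend (0.0141) and with array weights (0.0273). Like 4 of the 5 lower genes, it was tested only through the wild-type arrays. The Cyp4a10 probe set has the suffix f, so its signal may come in part from related genes. The related Cyp4a12b had 194 ± 30.8 in the mutant (SD, n = 2) and 226 ± 38.9 in the wild type (SD, n = 4), a difference of -0.19.

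Among P450 enzymes that act mainly on the body's own molecules, Cyp21a1, the steroid 21-hydroxylase, had 621 and 546 on the mutant arrays against 618, 593, 539 and 499 on the wild-type arrays. These ranges overlap, and the interval of the difference was -0.24 to 0.35. Its probe set has the suffix s, given to sets shared by several transcripts, as have the sets that stood for Adh5, Aldh2 and Aldh7a1. Cyp7b1, which hydroxylates oxysterols, had 316 and 242 on the mutant arrays against 227, 173, 158 and 189 on the wild-type arrays. Both mutant values were the higher ones, but the gene did not pass (0.54, adjusted p = 0.145), as with its second probe set (0.51, adjusted p = 0.212). Cyp1b1, which oxidises oestrogens and many aromatic compounds, had a difference of 0.16 (interval -0.24 to 0.56). Its second probe set, below the filter and not tested, had -0.32.

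Of the drug- and fatty acid-oxidising P450 enzymes, Cyp2c39 had 362 and 307 on the mutant arrays against 294, 244, 276 and 196 on the wild-type arrays, without overlap (0.40, adjusted p = 0.240). Cyp2s1 (0.10), Cyp4b1 (0.32), Cyp2e1 (-0.17), which oxidises ethanol, and Cyp2a12 (-0.16) all overlapped between the groups. Cyp2c38 (0.62) and Cyp4f13 (0.79) had wide intervals, from -0.80 to 2.04 and from -0.87 to 2.45. For Cyp2c38 mutant replicate 1 gave 206 and replicate 2 gave 67.2, and without mutant replicate 1 the difference was -0.09. Cyp4f13 likewise had 49.1 and 188 on the mutant arrays against 17.7, 24.6, 88.2 and 122 on the wild-type arrays. Its second probe set, below the filter and not tested, had 1.33, with both mutant values above all wild-type values.

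Among the 15 Gst genes, 13 were tested, with 1 lower (Gsto1), 1 higher (Gstm5) and 11 not past the threshold; their median was 0.03. Gstt1, of the theta class, had the highest difference of all 41 genes, with 146 and 154 on the mutant arrays against 65.1, 23.1, 18.5 and 18.8 on the wild-type arrays. The groups were far apart, but the wild-type values lay below the filter, so it was tested only through the mutant arrays (1.91, interval 0.65 to 3.17, adjusted p = 0.0626). It passed with an offset of 64 (1.19, adjusted p = 0.0326), with no filter (0.0433), with no variance trend (0.0328) and with array weights (0.0412). Gsta3, of the alpha class, was likewise tested through the mutant arrays alone, with 115 and 110.2 against 66.7, 36.5, 53.2 and 54.8 on the wild-type arrays (0.92, adjusted p = 0.196; 0.0394 with no variance trend). The other theta-class gene, Gstt2, had 284 and 220.2 on the mutant arrays against 236, 348, 282 and 355 on the wild-type arrays, which overlap (-0.25).

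The mu-class genes, which lie on chromosome 3, differed among themselves. Beside Gstm5, Gstm3 had 585 and 479 on the mutant arrays against 388, 324, 466 and 291 on the wild-type arrays (0.53, adjusted p = 0.124; 0.40 at its second probe set). Gstm1 had 2637 and 2438 on the mutant arrays, inside the spread of the wild-type values of 2590, 2463, 2294 and 2568 (0.03, interval -0.17 to 0.24). The brighter Gstm2 probe set had 1113 and 1101 on the mutant arrays against 1298, 1382, 1548 and 1326 on the wild-type arrays (-0.32, adjusted p = 0.0826), while its second probe set had 0.87 (0.110), so no direction is given for this gene. These genes are close in sequence, and the probe sets of Gstm1, Gstm3 and Gstm5 have the suffix f, so signal of one may come in part from another.

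The other glutathione transferases included Gstp1, the pi-class enzyme, with 3933 and 4092 on the mutant arrays against 4242, 4132, 3867 and 4574 on the wild-type arrays. These overlap, with an interval of -0.27 to 0.14. Gstz1, the zeta-class enzyme of tyrosine breakdown, had 1086 and 1168 on the mutant arrays against 843, 1008, 813 and 784 on the wild-type arrays. Its groups did not overlap and it did not pass (0.39, adjusted p = 0.0813). Gsta4, which detoxifies lipid peroxidation products, had 0.33 (adjusted p = 0.247), Gsta2 had -0.24 and the mitochondrial and peroxisomal Gstk1 had -0.01, and all 3 overlapped between the groups.

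None of the 3 tested Adh genes passed. Adh1, the class I ethanol and retinol dehydrogenase, had 235 and 192 on the mutant arrays against 342, 307, 263 and 342 on the wild-type arrays. Both mutant values were the lowest of the 6 (-0.52, interval -0.93 to -0.12, adjusted p = 0.0992). Adh5, the glutathione-dependent formaldehyde dehydrogenase, had 4141 and 4289 on the mutant arrays against 4295, 4453, 4024 and 4294 on the wild-type arrays. Its difference was -0.02, with an interval of -0.20 to 0.16, and its second probe set had 0.01. Adh7, the class IV retinol dehydrogenase, had 262 and 195 on the mutant arrays against 242, 138, 247 and 68.5 on the wild-type arrays, and that spread left an interval of -0.51 to 1.49.

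All 8 Aldh genes were tested, with 1 lower (Aldh1a7), 1 higher (Aldh1a3) and 6 that did not pass. Aldh2, the mitochondrial enzyme that clears acetaldehyde, had 1215 and 1286 on the mutant arrays against 810, 1016, 1026 and 912 on the wild-type arrays. The groups did not overlap (0.41, adjusted p = 0.0644), and a second probe set gave 0.47 (adjusted p = 0.0603), while the dimmest gave -0.11 (0.831). Aldh9a1, which acts in carnitine synthesis, had 631 and 597 on the mutant arrays against 422, 494, 500.1 and 428 on the wild-type arrays, again without overlap (0.40, adjusted p = 0.0810). Aldh7a1, of lysine breakdown, had -0.01 at both tested probe sets (interval -0.21 to 0.19 at the brighter) and -0.11 at another below the filter. Aldh3a2, a fatty aldehyde dehydrogenase, had -0.23 (0.07 at its second probe set), Aldh18a1, of proline synthesis, had -0.26 and the cytosolic Aldh3a1 had 0.54, with intervals that include 0. Second probe sets, below the filter and not tested, had 0.56 for Aldh18a1 and 0.40 for Aldh3a1.

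Beside the called genes, the remaining families held 2 tested genes. Sult5a1 had 197 and 181 on the mutant arrays against 121, 169, 117 and 80.2 on the wild-type arrays, without overlap (0.61, adjusted p = 0.240). Ephx2, the soluble epoxide hydrolase, had 62.8 and 69.6 on the mutant arrays against 110, 76.3, 106 and 62.0 on the wild-type arrays, which overlap (-0.32, interval -1.19 to 0.56). Over all families, 20 of the 41 genes (48.8%) had both mutant values beyond the wild-type range, against 37.4% of all probe sets tested. There were 9 genes below it, against 18.8% of all probe sets, and 11 above it, against 18.6%. Of the 41 genes, 7 passed the filter only through the wild-type arrays and 2 only through the mutant arrays.

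**Figure D3:**
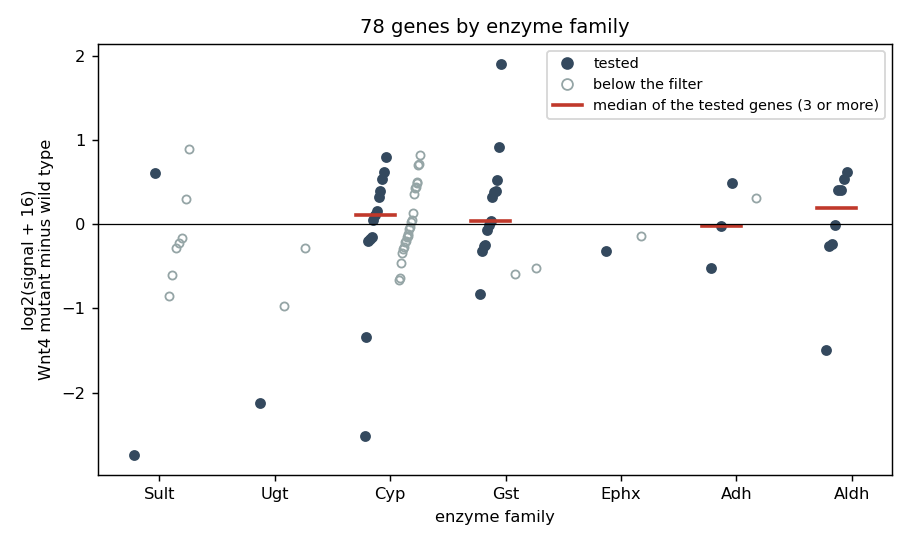
Difference of log2(signal + 16), Wnt4 mutant minus wild type, for each of the 78 genes by family. Filled points are the 41 tested genes and open points the 37 below the filter, and red lines give the median of the tested genes in the 4 families with at least 3 of them; these medians lie between -0.02 and 0.20 while single genes run from -2.75 to 1.91.

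The families differed more within themselves than in their medians, which were 0.10 for Cyp, 0.03 for Gst, -0.02 for Adh and 0.20 for Aldh (a description, with no test). The other 37 genes lay below the filter, 32 of them above the 40th percentile on no array and 5 on 1 array. They were 24 Cyp genes, 7 Sult genes, 2 Gst genes, 2 Ugt genes, Adh4 and Ephx1, with signals from 1.56 to 166 over all arrays. They include Cyp1a1, Cyp1a2 and Cyp3a11, known as inducible enzymes of adult liver, Cyp7a1 and Cyp8b1 of bile acid synthesis, Cyp24a1 and Cyp27b1 of vitamin D metabolism, and Cyp26a1, which degrades retinoic acid. In a fit with no filter none of the 37 passed (limma), against 3.14% lower and 2.46% higher of all probe sets, and none had an unadjusted p under 0.05. The mutant arrays overlapped the wild-type range for 31 of them, and lay below it for 3 and above it for 3. The share over all probe sets below the filter was not computed, so these counts support nothing. Ugt2b34, on chromosome 5 with Ugt2b5 and Sult1d1, had 71.6 and 10.4 on the mutant arrays against 73.4, 94.3, 73.6 and 73.7 on the wild-type arrays.

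**Figure D4:**
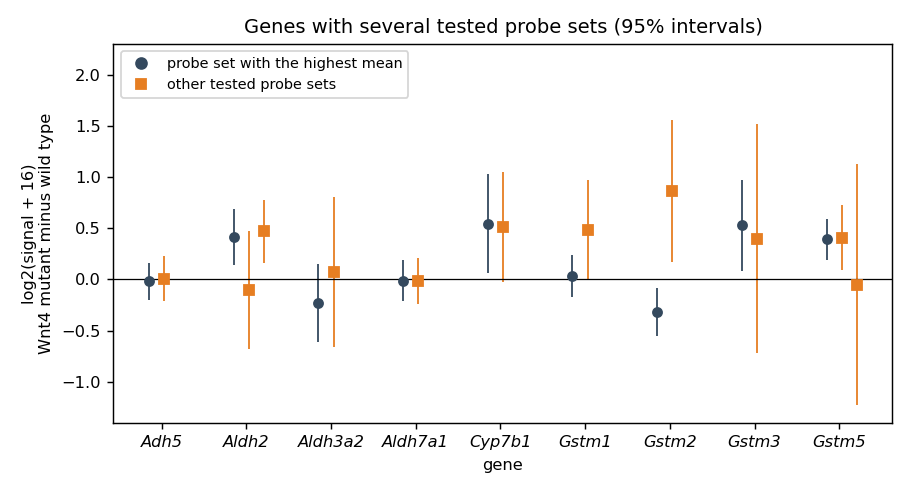
Difference of log2(signal + 16), Wnt4 mutant minus wild type, with 95% intervals, for the 9 genes with several tested probe sets. Circles are the probe set with the highest mean, which represents the gene, and squares the others; in 5 genes the probe sets differ in sign.

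Of the 9 genes with several tested probe sets, 4 had the same sign at all of them and 5 did not. The widest gap was in Gstm2, where the second, dimmer probe set had 240 and 279 on the mutant arrays against 114, 101, 222 and 126 on the wild-type arrays, a difference of 0.87 (adjusted p = 0.110). The intervals of the Gstm2 probe sets lay on opposite sides of 0. For Gstm1 the second set had 0.49 against 0.03.

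Other genes of the pathway came from a list of 65 partners, regulators and transporters, of which 51 were on the array and 29 tested. Of these, 5 were lower, 1 was higher and 23 not past the threshold (median -0.09), against 10.8% of all probe sets called in either direction. Gclm, the modifier subunit of the enzyme that starts glutathione synthesis, had 283 and 234 on the mutant arrays against 466, 396, 489 and 410 on the wild-type arrays (-0.73, adjusted p = 0.0182). Gsr, which regenerates reduced glutathione, had 899 and 867 on the mutant arrays against 1251, 1150, 1122 and 1092 on the wild-type arrays (-0.38, adjusted p = 0.0442). In both, all mutant values lay below all wild-type values. Mgst1, a membrane-bound glutathione transferase, had 502 and 648 on the mutant arrays against 145, 234, 238 and 104 on the wild-type arrays. It was the 1 gene of this list that passed the threshold as higher (1.65, adjusted p = 0.0115).

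The remaining lower genes of that list were Fmo1, a flavin monooxygenase (-0.71, adjusted p = 0.0246), Cbr1, a carbonyl reductase (-0.59, 0.0147), and the organic anion transporter Slc22a6 (-2.12, 0.00485), which was tested only through the wild-type arrays. Regulators did not pass: Nfe2l2 had 0.16 (adjusted p = 0.398), the dioxin receptor Ahr 0.40 (0.391), its partner Arnt 0.27 (0.512), the xenobiotic receptor Nr1i3 0.02 (0.964) and its partner Rxra 0.41 (0.235). Hnf4a had 25.3 and 30.1 on the mutant arrays against 242, 14.9, 181 and 230 on the wild-type arrays. Wild-type replicate 2 and both mutant arrays were under the filter level here, and the gene did not pass (-1.68, adjusted p = 0.230).

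Marker genes of cell types were read beside the enzymes, with no test between them. Of 12 tested proximal tubule markers 8 were lower (against 6.11% of all probe sets), 0 higher and 4 not past the threshold. The median over the 12 was -2.73. The 8 ran from Pdzk1 (-4.70) through Keg1, Napsa, Slc34a1, Mep1a, Vil1 and Lrp2 to Slc22a6 (-2.12). Of these 8, 7 (all but Lrp2) were tested only through the wild-type arrays. The filter thus took them where the wild type was high, which favours lower calls, and their count and median support nothing. The summed signal of the 14 on the array was 555 to 595 in the mutant and 2794 to 4200 in the wild type. Of 12 tested renal stroma markers 7 were higher, against 4.65% of all probe sets, 0 lower and 5 not past the threshold. The 7 higher ran from Dcn (0.71) through Pdgfra, Postn, Lum, Smoc2 and Ntn1 to Foxd1 (1.75). Of the 5 that did not pass, Pdgfrb went the other way (-0.68, limma adjusted p = 0.0713), with both mutant values below all wild-type values. Tcf21 (0.13), Col1a2 (0.18), Col1a1 (0.34) and Col3a1 (0.41) had positive differences. The summed signal of the 12 was 46132 to 47507 in the mutant and 26459 to 33226 in the wild type. The part of either list in the enzymes' differences was not tested.

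For hepatocytes, which hold many of these enzymes, 9 of 12 markers on the array lay above the 40th percentile on no array, and 1 of 3 tested was lower (Afp, -1.17, adjusted p = 0.0258), tested only through the wild-type arrays. Their summed signal was 627 to 660 in the mutant and 705 to 856 in the wild type. Of 9 adrenal and gonadal markers, 6 lay above it on no array, Cyp11a1, Cyp17a1, Star and Hsd3b1 among them, and neither of the 2 tested (Cyp21a1, which is one of the 78 genes, and Nr5a1) passed. Their sum was 2152 to 2385 in the mutant and 1821 to 2105 in the wild type. Skeletal muscle markers were higher for 5 of 7 tested (from Tnni1, 1.05, through Tnnt1, Actc1 and Myl1 to Tnnc1, 2.76, which was tested only through the mutant arrays; sums 5125 to 5454 against 1276 to 2106 in the wild type). Ureteric bud markers had 3 higher (Krt8, Krt18, Gata2) and 1 lower (Calb1) of 7 (7775 to 7901 against 6269 to 6880 in the wild type), and nephron progenitor markers 1 lower (Cited1) of 5 (5299 to 5334 against 5755 to 6738 in the wild type). Of all probe sets tested, 6.11% were lower and 4.65% higher, the background for the called counts of these lists. No marker was listed at 0, and the part of these cell types in the results was not tested.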

How the data were processed

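Whole-kidney RNA from 2 Wnt4 mutant and 4 wild-type pools was measured on 1-colour Affymetrix arrays. The deposited values are signals per probe set on a linear intensity scale. GCOS, Affymetrix's array software, is named for them, per the submitters' processing notes; no source used here gives its version, settings or background step. In each column the mean without the lowest and highest 2% was 500.27 to 500.29, so arrays had been scaled before deposit. With 6 arrays, their number limits precision. Detection calls were not used here.

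Of 12488 probe sets, 66 controls were set aside. Names came from the platform annotation, updated by gene identifier to RefSeq (GRCm38.p6): 10833 probe sets had 1 symbol (10817 matched, 16 kept the older name), 396 several and 1193 none. Probe sets with several symbols named no gene. The 7981 probe sets above the 40th percentile of their array on at least 2 arrays were analysed as log2(signal + 16) with limma 3.58.1 (R 4.3.3; lmFit, eBayes with a variance trend, no covariate) and Benjamini-Hochberg adjustment over all of them. The offset understates changes of low genes. No test compared probe sets with each other.

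Genes given in full were those past the threshold, the gene with the highest mean in each family and the 5 others with the largest differences; further genes were added after their values were seen. The members, lists and tests were chosen with earlier results of these data known. Same-numbered mutant and wild-type arrays did not deviate together (correlations 0.003 and -0.015), and nothing in the labels pairs them, so no block was used. With 15 ways to split the arrays, a permutation test could not go below p = 0.0667 and none is reported. The study's design text treats each pool as a biological replicate; litters are not given, and p-values measure the spread between these pools. Alternatives changed the offset, filter, normalization, probe set rule, variance model, weights, block and arrays; leaving out wild-type replicates 2 and 4 was added after the data were seen. Figures were drawn with matplotlib 3.10.9.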

Additional observations from a re-analysis of the deposited data

Results flagged for a closer look

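In 3 of the 41 tested genes, 1 wild-type array lay far from the other 3 by Dixon's ratio, about as many as chance would flag at 1 in 20 groups. Gsto1 read 1529 on wild-type replicate 4, against 1228 to 1272 on the other wild-type arrays, and without this array its difference was -0.76 (adjusted p = 0.00141). Gstt1 read 65.1 on wild-type replicate 1, against 18.5 to 23.1 on the others. Sult1d1 read 168 on wild-type replicate 4, against 214 to 224 on the others, and without it the difference was -2.83 (adjusted p = 0.00890).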

How the results depend on the processing

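Of 17 named genes, Sult1d1 and Cyp2d26 (15 alternatives each) and Gsto1 (16) kept direction and call under every alternative run for them. At the 60th percentile filter Sult1d1 and Cyp2d26 were not tested. Gstp1, Cyp4f13 and Ephx2, which did not pass in the main fit, also kept direction and call under every alternative run for them. Main counts were 488 lower and 371 higher probe sets, and 5 lower and 2 higher members. Leaving out 1 array gave 188 to 553 lower and 114 to 448 higher probe sets, and 3 to 4 lower and 0 to 2 higher members; with 1 mutant array left, it is assumed to vary like the others. Array weights gave 738 lower and 613 higher probe sets and 6 higher members, the filter at the 60th percentile 1 lower member, wild-type replicates 1 and 3 alone 3 lower, and averaging probe sets of a gene 1 higher. With no variance trend the counts stayed 5 and 2, but Ugt2b5, Gstm5 and Aldh1a3 lost their calls and Cyp4a10, Gstt1 and Gsta3 gained one. The replicate block gave 1 higher member (Aldh1a3 and Aldh1a7 lost their calls, adjusted p = 0.0581 and 0.0703); the samples share only a number.

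The median over the members was -0.042 with no filter, 0.10 with the mean of probe sets and -0.034 to 0.062 over left-out arrays. Family medians, near 0, moved too: Aldh 0.15 (offset 64), 0.40 (60th percentile), 0.23 (replicate block), 0.013 (without wild-type replicates 2 and 4), 0.12 (mean of probe sets) and -0.045 to 0.22 over left-out arrays; Adh 0.15 (no filter), -0.27 (60th percentile), -0.11 (without wild-type replicates 2 and 4); Gst -0.0089 (no filter), 0.26 (mean of probe sets) and -0.022 to 0.056 over left-out arrays; Cyp -0.037 to 0.20 over left-out arrays. Near 0, Adh5 turned positive with quantile normalization (0.0075) and without wild-type replicates 2 and 4 (0.020), Aldh7a1 with quantile normalization (0.013), the block (0.047) and without wild-type replicates 2 and 4 (0.013), and Cyp21a1 negative with the block (-0.054). Over left-out arrays Adh5 ran -0.044 to 0.0086, Aldh7a1 -0.045 to 0.012, Cyp21a1 -0.037 to 0.15 and Cyp2c38 -0.088 to 1.33. The cause was not tested. Without detection calls, signals under the 40th percentile cannot be ordered.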

Other observations

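A probe set outside the 78 genes, whose annotation lists 8 Ugt1a symbols together, had signals of 422 and 386 on the mutant arrays against 1685, 1469, 1634 and 1634 on the wild-type arrays. It was above the filter on all 6 arrays, and the groups lay far apart (-1.95 ± 0.10, SE, limma adjusted p = 2.51e-05). It cannot say which of the 8 transcripts differed. Among other probe sets with several symbols, one listing 2 Cyp4a symbols had 26.4 and 18.2 on the mutant arrays against 104, 104, 97.4 and 83.5 on the wild-type arrays, below the filter and not tested. One listing 2 Cyp2c symbols had 135 on both mutant arrays against 62.9, 58.1, 85.7 and 19.3 on the wild-type arrays (1.16, adjusted p = 0.177).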
